A study of Mus musculus with 66 samples.

Results

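The 18 libraries described here are a titration of RNA input in BC57, a mouse bladder cancer cell line, made with the Ovation SoLo kit. They were chosen by their titles and are 18 of the 66 libraries of the series. One BC57 pellet was divided in a part that was frozen (fresh frozen, FF) and a part that was held in buffered formalin for 24 hours and embedded in paraffin (FFPE). From FF and from FFPE RNA, 3 repeat libraries each were made with 50 pg, 3 with 250 pg and 3 with 2 ng of total RNA, which gives 6 groups. No group carried a genetic change or a treatment beyond fixation. The question was which genes drop out, vary more or shift when less RNA enters the library, and it was asked within FF and within FFPE. BC57 is a single line, all libraries go back to the divided pellet, and the labels do not say whether RNA was extracted more than once. Every p-value below therefore measures the spread between these libraries, which may be technical, and not between cultures. The 50 pg and the 250 pg libraries were compared with the same 2 ng libraries, so both comparisons share those 3 libraries.

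In this kit, RNA is treated with DNase, copied from random primers into cDNA of known strand and amplified by PCR, and cDNA of ribosomal RNA is removed before the final amplification. Random priming copies RNA without a poly(A) tail as well: the small nuclear RNAs of the spliceosome, the small nucleolar RNAs that guide ribosomal RNA modification, the Y RNAs, and the rRNAs and tRNAs of mitochondria. The smaller the input, the fewer molecules of each transcript enter the reaction and the more each one is amplified. The number of PCR cycles was set by qPCR for each input and sample type, per the labels' protocols, so RNA input and cycle number cannot be told apart here.

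All 9 markers of epithelial cells fixed for the check of the label, among them the keratin genes Krt7, Krt8, Krt18 and Krt19 and Epcam, were seen in each of the 6 groups, and their levels summed to 6588 to 7707 CPM (the usual depth-scaled unit, with a gene's count divided by its library's scaled total) in FF and 3581 to 3956 CPM in FFPE libraries. Markers of fibroblasts, smooth muscle, endothelium, immune cells and erythroid cells summed to at most 72.0 CPM in any library. Total counts lay between 2169163 and 3793116 in 7 of the 9 FF libraries and between 3430326 and 4706030 in FFPE libraries. The exceptions were FF 50 pg replicates 1 and 3, with 928722 and 1379992 counts. Detection and spread were therefore compared after each library was thinned at random, without replacement, to 928722 counts. The exception is the SD of single genes of at least 50 CPM, which used all counts.

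The genes whose levels moved most clearly with input include several families of near-identical small RNAs. Their sequences are shown because reads from such copies are hard to assign to a single gene, so that a pair counts as a single observation. Capitals mark the positions at which both copies of a pair differ, counted from the first base. Gm24265 (chr5:115489459-115489599, plus strand) and Gm24407 (chr5:115490254-115490394, plus strand) are small nuclear RNA genes of 141 bases with the sequence of U4, a spliceosomal RNA, and differ at 2 positions, G88A and C99A, an identity of 98.58%.
Gm24265: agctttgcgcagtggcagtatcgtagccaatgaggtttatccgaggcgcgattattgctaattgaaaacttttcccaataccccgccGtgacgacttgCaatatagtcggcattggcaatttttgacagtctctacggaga
Gm24407: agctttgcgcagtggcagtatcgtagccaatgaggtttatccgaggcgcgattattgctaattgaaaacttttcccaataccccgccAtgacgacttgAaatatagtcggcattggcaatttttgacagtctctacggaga
Snord14c (chr9:40803583-40803668) and Snord14d (chr9:40803995-40804080), on the plus strand inside Hspa8, are small nucleolar RNAs of 86 bases that differ at 2 positions, G47A and A49G.
Snord14c: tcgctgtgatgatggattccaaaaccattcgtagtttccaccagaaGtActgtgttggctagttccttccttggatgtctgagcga
Snord14d: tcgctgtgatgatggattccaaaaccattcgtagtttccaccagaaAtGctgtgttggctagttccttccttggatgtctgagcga
Gm25360 (chr1:72226240-72226430) and Gm25939 (chr1:72255008-72255198) are small nuclear RNA genes of 191 bases with an identity of 97.91% and 98.43% to Rnu2-10, an annotated gene of U2, the spliceosomal RNA that pairs with the branch point of introns. They differ from each other at 3 positions, T69C, G95A and T154C.
Gm25360: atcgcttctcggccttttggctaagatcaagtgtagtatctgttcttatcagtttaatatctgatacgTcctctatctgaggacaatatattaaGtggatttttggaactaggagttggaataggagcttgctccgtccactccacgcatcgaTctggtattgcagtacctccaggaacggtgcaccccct
Gm25939: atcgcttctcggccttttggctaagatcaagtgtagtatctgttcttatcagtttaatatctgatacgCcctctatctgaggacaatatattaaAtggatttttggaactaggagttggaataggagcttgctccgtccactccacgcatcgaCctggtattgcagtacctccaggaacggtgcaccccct
Coordinates and transcript sequences are those of GENCODE M21 on GRCm38 (mm10).

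Other small RNAs that were called are shown to give their kind and length. Rny3 (chr6:47781624-47781725, plus strand, 102 bases) encodes a Y RNA, a transcript of RNA polymerase III that binds the Ro protein, and its 3′ run of T is in capitals.
Rny3: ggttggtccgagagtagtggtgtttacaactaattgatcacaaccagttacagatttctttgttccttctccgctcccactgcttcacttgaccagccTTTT
Snora57 (chr19:8888538-8888685, minus strand, 148 bases) is an H/ACA-type small nucleolar RNA, and its ACA is in capitals.
Snora57: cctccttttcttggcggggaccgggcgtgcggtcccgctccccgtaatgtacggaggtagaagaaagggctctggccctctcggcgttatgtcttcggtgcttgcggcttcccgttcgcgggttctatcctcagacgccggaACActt
Gm23935 (chr16:11144125-11144181, plus strand) is annotated as a microRNA gene of 57 bases within an intron of Zc3h7a, on the strand opposite to it. It is shown because its shift with input at 250 pg differed between FF and FFPE by edgeR's quasi-likelihood test. Its GC content is 73.68%.
Gm23935: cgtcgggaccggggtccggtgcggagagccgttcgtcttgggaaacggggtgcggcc

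Less input gave fewer genes. At equal depth, FF libraries held at least 1 count for 13655 ± 312 genes at 50 pg, 14434 ± 84.2 at 250 pg and 14982 ± 12.5 at 2 ng (mean ± SD, n = 3 libraries each). The corresponding numbers in FFPE libraries were 13741 ± 250, 15209 ± 265 and 16318 ± 56.4 genes. The decrease from 2 ng was 8.86% at 50 pg and 3.66% at 250 pg in FF, and 15.8% and 6.80% in FFPE. Whether the decrease differed between FF and FFPE was not tested. In each of these 4 comparisons all 3 low-input libraries lay below all 3 libraries at 2 ng, and the two-sided exact permutation p was 0.1, the smallest that 3 against 3 libraries can give.

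Most of the genes that went missing were those with very few reads. With detection set at 5 or more counts, FF libraries held 10837 ± 78.0, 10923 ± 29.01 and 11008 ± 38.2 genes at 50 pg, 250 pg and 2 ng, a decrease of 1.55% and 0.772%. In FFPE the same rule gave 10881 ± 193, 11216 ± 14.7 and 11272 ± 32.96 genes, a decrease of 3.47% and 0.497%. None of these groups overlapped with its 2 ng group (two-sided exact permutation p = 0.1). The low tail of the count distribution shrank instead: genes with 1 to 4 counts made up 20.6% of the genes seen at 50 pg against 26.5% at 2 ng in FF, and 20.8% against 30.9% in FFPE. At 250 pg the share was 24.3% in FF and 26.2% in FFPE.

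Whether a gene was seen depended on its abundance, taken here from 3 poly(A) libraries of BC57 made from 1 µg of RNA that enter no comparison. All 2309 protein-coding genes of at least 100 CPM in the poly(A) libraries had a count in every library at equal depth. For the 6916 genes of 10 to 100 CPM, the share seen in a library was 99.2 ± 0.374% at 50 pg and 99.96 ± 0.0301% at 2 ng in FF, and 97.8 ± 0.383% and 99.9 ± 0.0221% in FFPE. The loss was larger below 10 CPM. Of the 2780 genes of 1 to 10 CPM, 66.4 ± 4.34% were seen at 50 pg, 79.2 ± 1.22% at 250 pg and 85.7 ± 0.903% at 2 ng in FF. In FFPE, 60.4 ± 3.85%, 76.3 ± 2.32% and 85.8 ± 0.517% of them were seen, against 2 ng shares that are about the same in both RNA samples. Below 1 CPM, the 2265 genes of 0.1 to 1 CPM were seen at 14.2%, 20.4% and 25.6% in FF and at 15.8%, 23.8% and 33.7% in FFPE.

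**Figure D1:**
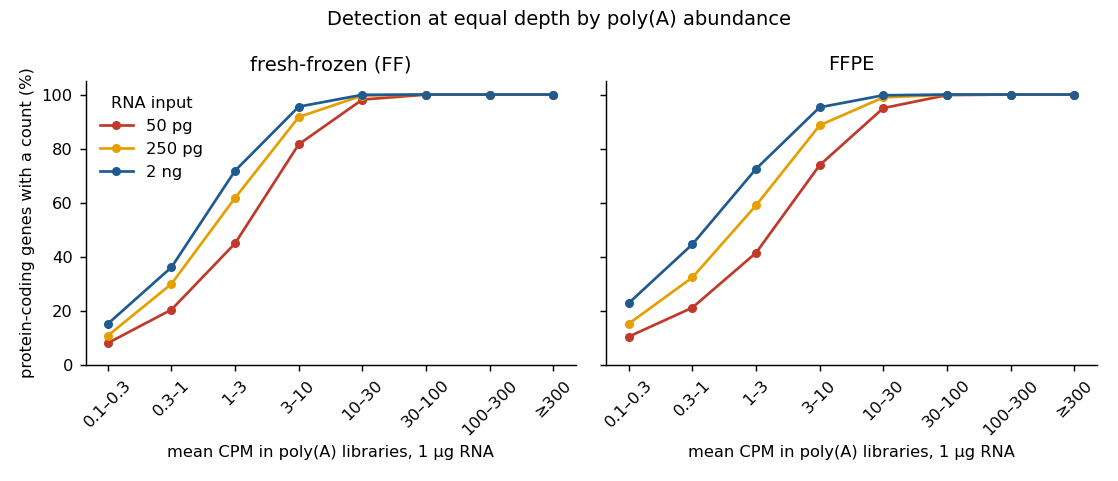
Share of protein-coding genes with at least 1 count in a library thinned to 928722 counts (vertical axis, percent, mean over 3 libraries) against abundance class in poly(A) libraries (horizontal axis, CPM), for FF (left) and FFPE (right). The lines for 50 pg, 250 pg and 2 ng are stacked in that order below 10 CPM and meet at 100% from 100 CPM on.

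The other RNA classes were detected as follows. Of 4186 long noncoding RNA genes, 20.1 ± 1.23%, 23.1 ± 0.478% and 25.5 ± 0.395% were seen at 50 pg, 250 pg and 2 ng in FF, and 21.4 ± 0.517%, 27.4 ± 0.646% and 32.5 ± 0.305% in FFPE. Small noncoding RNA genes, 5746 in all, went from 8.85% at 2 ng to 7.27% at 50 pg in FF and from 14.7% to 9.69% in FFPE. Pseudogenes went from 12.6% to 11.3% in FF and from 17.5% to 11.9% in FFPE. All 13 mitochondrial protein-coding genes and both mitochondrial rRNA genes were seen in every library. Replication-dependent histone genes, whose mRNAs end in a stem-loop and lack a poly(A) tail, were seen at 94.3% to 95.4% of 58 genes in every group.

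Complete dropout was rare. Of 10150 genes with 5 or more counts in all 3 FF libraries at 2 ng, none was at 0 in all 3 libraries at 50 pg, nor at 250 pg, after thinning. Of 10216 such genes in FFPE, 8 were at 0 in all 3 libraries at 50 pg and none at 250 pg. The reverse, 5 or more counts in all 3 low-input libraries and 0 in all 3 at 2 ng, did not occur in any comparison.

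The 8 genes were Gm26514, Rcbtb2, Zfyve21, Gm16136, Grb14, Slc25a27, Dedd2 and March1. The long noncoding RNA gene Gm26514 (chromosome 13, 38945543 to 38951313) had 15, 15 and 13 thinned counts at 2 ng, and before thinning its counts were 25, 55 and 41 at 2 ng against 0, 0 and 2 at 50 pg. For Rcbtb2, which encodes a protein with RCC1 and BTB domains, the counts before thinning were 36, 36 and 45 at 2 ng against 0, 0 and 2 at 50 pg. Zfyve21, which encodes a FYVE domain protein, had 38, 27 and 35 counts against 0, 3 and 0. All 3 genes were still present at 250 pg, with thinned counts of 1, 14 and 1 for Gm26514, 5, 6 and 4 for Rcbtb2 and 7, 6 and 8 for Zfyve21. At 2 ng the other 5 genes had 5 to 10 thinned counts. With another random thinning 5 genes met the rule, and before thinning none of the 8 was at 0 in all 3 libraries at 50 pg.

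Loss from single libraries was the common form, by a rule chosen after the first counts were seen. In FF, 190 of the 10150 genes (1.87%) were at 0 in at least 1 library at 50 pg, of which 170 were at 0 in exactly 1 library and 20 in 2. At 250 pg the number was 38 (0.374%). In FFPE it was 411 of 10216 genes (4.02%) at 50 pg, 357 of them in exactly 1 library, and 56 (0.548%) at 250 pg. The reverse, a 0 in at least 1 library at 2 ng among genes with 5 or more counts in all 3 low-input libraries, was met by 5, 8, 11 and 17 genes in the same 4 comparisons (FF 50 pg, FF 250 pg, FFPE 50 pg, FFPE 250 pg).

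The loss ended at about 20 counts. Of genes with a mean of 5 to 10 thinned counts at 2 ng, 14.3% had a 0 at 50 pg in FF and 27.5% in FFPE. Between 10 and 20 counts the share was 2.58% and 5.80%, between 20 and 50 counts 0.0646% and 0.300%, and of the 4052 FF and 3701 FFPE genes with a mean of at least 50 counts none had a 0. At 250 pg the shares for 5 to 10 counts were 3.17% in FF and 4.72% in FFPE, and no gene above 20 counts had a 0. By class, a 0 at 50 pg was found in 14.004% of the 457 protein-coding genes of 1 to 10 poly(A) CPM, 6.01% of 333 long noncoding RNA genes and 8.27% of 133 small noncoding RNA genes in FF. In FFPE these shares were 22.4% of 499, 15.2% of 375 and 4.67% of 214.

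Among the lost genes of highest level, some were well covered in other libraries of the same group at equal depth. Asap2, which encodes an Arf GTPase-activating protein, had 30, 0 and 13 thinned counts in the FF 50 pg libraries against 22, 30 and 23 at 2 ng. Cdkn2c, which encodes the cell cycle inhibitor p18, had 0, 19 and 8 thinned counts at 50 pg against 14, 15 and 11 at 2 ng. In these genes the libraries of a group disagreed, and the low-input group spanned the whole range of the 2 ng group. In FFPE, Hsdl1 had 0, 31 and 15 thinned counts at 50 pg against 20, 19 and 28 at 2 ng. Exo1, which encodes an exonuclease of mismatch repair, had 0, 22 and 40 thinned counts against 15, 27 and 27. Mtm1, a phosphoinositide phosphatase gene, lost a library in both RNA samples, with thinned counts of 0, 6 and 16 against 15, 11 and 19 in FF and of 16, 35 and 0 against 15, 20 and 13 in FFPE. The library at 0 after thinning differed, replicate 1 in FF and replicate 3 in FFPE. At 250 pg, Aspn had 13, 0 and 6 thinned counts in FFPE against 8, 9 and 12 at 2 ng. Before thinning, the libraries at 0 held 4 counts of Asap2, 15 of Exo1 and, in FFPE, 1 of Mtm1. Those of Cdkn2c, Hsdl1 and Aspn, and of Mtm1 in FF, held 0.

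The spread between repeat libraries rose as the input fell, at every abundance. It is given here as the variance of the thinned counts over 3 libraries divided by their mean, which is 1 when libraries differ by random sampling of reads alone. Averaged over protein-coding genes with a count, this ratio went from 1.20 at 2 ng through 1.90 at 250 pg to 3.62 at 50 pg in FF, and from 1.28 through 2.47 to 5.15 in FFPE. For the genes of 10 to 100 poly(A) CPM it was 1.17, 1.91 and 3.80 in FF and 1.28, 2.58 and 5.43 in FFPE, in the same order. For those of at least 100 CPM it was 1.53, 2.34 and 4.17 in FF and 1.43, 2.71 and 5.91 in FFPE. The ratio at 50 pg was thus well above the read sampling limit in each of these classes. At 2 ng it was nearer to the limit, though still 1.53 in FF and 1.43 in FFPE for genes of at least 100 CPM.

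From 50 pg to 2 ng, long noncoding RNAs had nearly the ratios of mRNAs, 3.25, 1.73 and 1.13 in FF and 4.23, 2.12 and 1.21 in FFPE. Small noncoding RNAs in FF had a mean ratio of 5.78 at 50 pg against 1.88 at 250 pg and 1.53 at 2 ng. Their median ratio at 50 pg was 2.0, below the 2.53 of protein-coding genes, so the high mean rests on a part of these genes. In FFPE they had 3.59, 2.11 and 1.36, below the mRNAs at each low input. The mitochondrial protein-coding genes did not follow the order of input: the ratio was 4.63, 4.64 and 4.92 in FF and 15.5, 3.13 and 17.2 in FFPE.

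**Figure D2:**
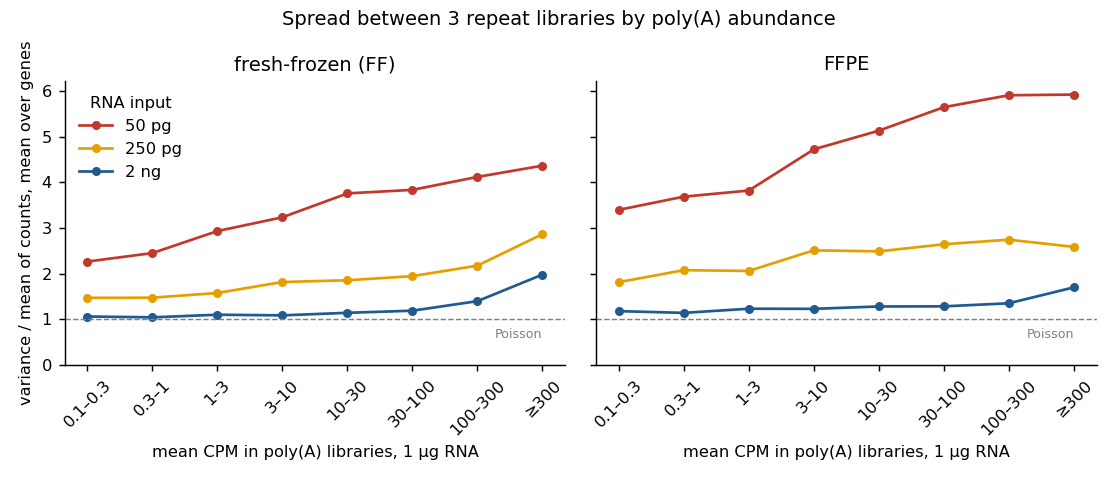
Variance of thinned counts over the 3 repeat libraries divided by their mean (vertical axis, no unit, mean over protein-coding genes with a count) against abundance class in poly(A) libraries (horizontal axis, CPM), for FF (left) and FFPE (right). The dashed line is the Poisson value of 1. The 2 ng line stays near 1 up to 100 CPM, and the 50 pg line lies above the 250 pg line in every class.

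On the log scale the same spread can be read per gene. For 3990 FF genes the mean reached 50 CPM in both the 50 pg and the 2 ng group. Among these, the SD of log2(CPM + 1) was larger at 50 pg in 82.7%, with a median of 0.216 against 0.0952. An SD above 0.5 was found for 260 of them at 50 pg and 8 at 2 ng. In FFPE, 88.5% of 3625 genes had the larger SD at 50 pg (median 0.248 against 0.0897), with 464 against 2 genes above 0.5. At 250 pg the SD was larger in 65.2% of 4091 FF genes and 74.5% of 3696 FFPE genes, with 12 against 8 and 44 against 2 genes above 0.5. Pearson's r between repeat libraries, over log2(CPM + 1) of 13984 FF genes, was 0.874 to 0.890 at 50 pg, 0.928 to 0.933 at 250 pg and 0.954 to 0.958 at 2 ng. Over 15092 FFPE genes it was 0.834 to 0.841, 0.898 to 0.909 and 0.944 to 0.947 (across genes, which are not independent).

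The genes of largest rise in SD are given as examples. They were picked for a wide spread at the low input and a small one at 2 ng, so that contrast follows from the choice. In FF, Dbnl, which encodes the actin-binding protein drebrin-like, was at 18.1, 83.7 and 56.9 CPM at 50 pg against 59.05, 66.8 and 66.2 CPM at 2 ng. Dyrk1a, a protein kinase gene, was at 91.6, 27.7 and 81.4 CPM against 76.9, 74.6 and 81.6 CPM. Cdc20, which encodes an activator of the anaphase-promoting complex, was at 25.6, 96.3 and 85.7 CPM against 79.4, 63.1 and 61.9 CPM. In each of these genes 1 library at 50 pg lay far below the others while the 2 ng libraries lay close together, and it was replicate 1 for Dbnl and Cdc20 and replicate 2 for Dyrk1a. Dgkd, a diacylglycerol kinase gene, was low in replicate 3, at 61.8, 69.9 and 18.7 CPM against 48.9, 55.3 and 68.0 CPM. Mavs, which encodes an adaptor of antiviral signalling on mitochondria, had 1 high library, at 109, 40.8 and 33.8 CPM against 57.3, 50.3 and 47.8 CPM.

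In FFPE at 50 pg single libraries also lay far from the others in genes picked by the same rule. Dcun1d4, of a family of factors for cullin neddylation, was at 41.7, 7.10 and 109 CPM against 45.97, 57.6 and 54.1 CPM at 2 ng. Yipf4, which encodes a membrane protein of the Golgi, was at 131, 12.9 and 47.1 CPM against 51.1, 58.7 and 52.4 CPM. Atp2c1, the calcium pump of the Golgi, was at 12.9, 83.0 and 80.1 CPM against 50.1, 51.4 and 57.2 CPM. For Yipf4 and Dcun1d4, single libraries at 50 pg differed by more than 10-fold. A mean of at least 50 CPM in both groups was required for a gene to be picked. How near the means at 50 pg and 2 ng lie therefore follows in part from the choice. At 250 pg the largest cases were smaller: Abcd3, a peroxisomal transporter gene, was at 34.8, 76.6 and 82.5 CPM in FF against 59.5, 55.8 and 53.96 CPM, and Asf1b, a histone chaperone gene, was at 92.2, 74.6 and 35.9 CPM in FFPE against 65.5, 78.9 and 69.7 CPM.

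**Figure D3:**
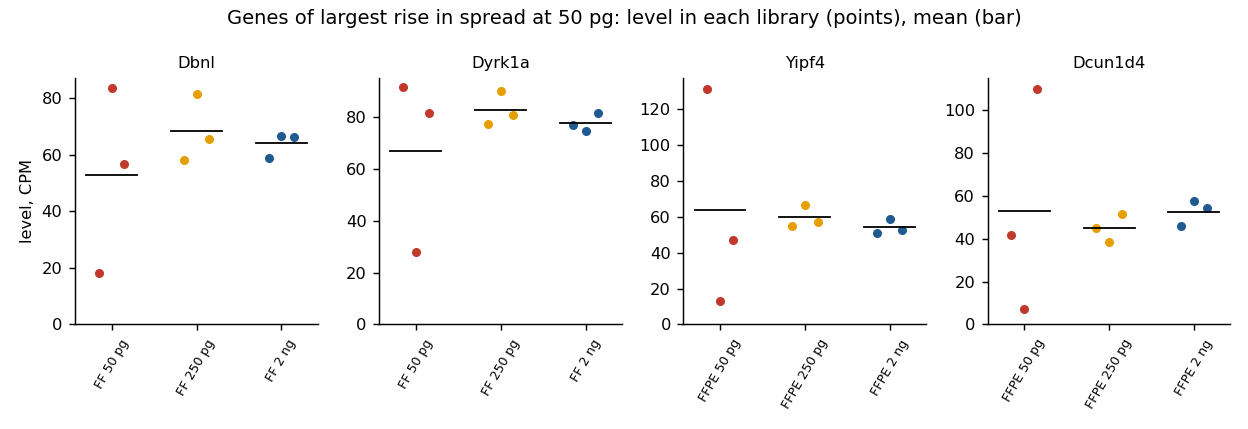
Level of 4 genes (vertical axes, CPM, starting at 0) in each library, with bars at group means, for Dbnl and Dyrk1a in FF and Yipf4 and Dcun1d4 in FFPE. The 50 pg points run from 18.1 to 83.7 CPM for Dbnl and from 7.10 to 109 CPM for Dcun1d4, while the 2 ng points of each gene lie within 12 CPM of each other. The genes were picked for the largest rise in SD, so this contrast follows from the choice.

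Against this spread few genes shifted in the main fits, which had no block for the replicate number. With edgeR's quasi-likelihood test and Benjamini-Hochberg adjustment over all genes tested, 3 of 11259 genes passed an adjusted p of 0.05 in FF at 50 pg (0.0266%), all higher. At 250 pg in FF, 23 of 11641 passed (0.198%), 22 higher (0.189%) and 1 lower (0.00859%). In FFPE none of 12817 genes passed at 50 pg (0%), where 848 had an unadjusted p under 0.05 DESeq2 called 171 and limma's voom with a weight per group called 19, and 13 of 12780 passed at 250 pg (0.102%), 11 higher (0.0861%) and 2 lower (0.0156%). The spread was larger at 50 pg than at 250 pg: the biological coefficient of variation fitted by edgeR was 0.195 and 0.398 at 50 pg in FF and FFPE, and 0.124 and 0.198 at 250 pg. The median standard error of a log2 fold change was 0.27 and 0.37 at 50 pg, and 0.20 and 0.25 at 250 pg. The 3 calls in FF at 50 pg rest on few libraries: the number was 0 without 50 pg replicate 2 or 3 or 2 ng replicate 1 or 2, 15 without 50 pg replicate 1 and 5 without 2 ng replicate 3. In FF at 250 pg it was 8 without 250 pg replicate 2, 49 without 250 pg replicate 3, and 10 and 11 without 2 ng replicates 1 and 2. In FFPE at 250 pg it was 8 without 250 pg replicate 2.

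Of the 23 genes called in FF at 250 pg, 6 were mitochondrial RNAs and 8 small noncoding RNAs, all higher at low input, and 1, Gm26917, was lower. The other 8, all higher, were 5 protein-coding genes, 2 pseudogenes and 1 long noncoding RNA. In FFPE at 250 pg the calls were 9 mitochondrial RNAs and 2 small nucleolar RNAs, all higher, with Gm26917 and Gm23935 lower. These tallies count both genes of a near-identical pair, although a pair is a single observation. The pairs are Gm24265 and Gm24407, and Gm25360 and Gm25939, in FF, and Snord14c and Snord14d in FFPE. Over all genes tested, the median log2 fold change was 0.01 in FF at both inputs, 0.03 in FFPE at 50 pg and 0.02 at 250 pg. Fold changes of 2 or more, in either direction and called or not, made up 3.33% and 0.945% of the genes in FF at 50 and 250 pg, and 8.98% and 2.71% in FFPE.

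**Figure D4:**
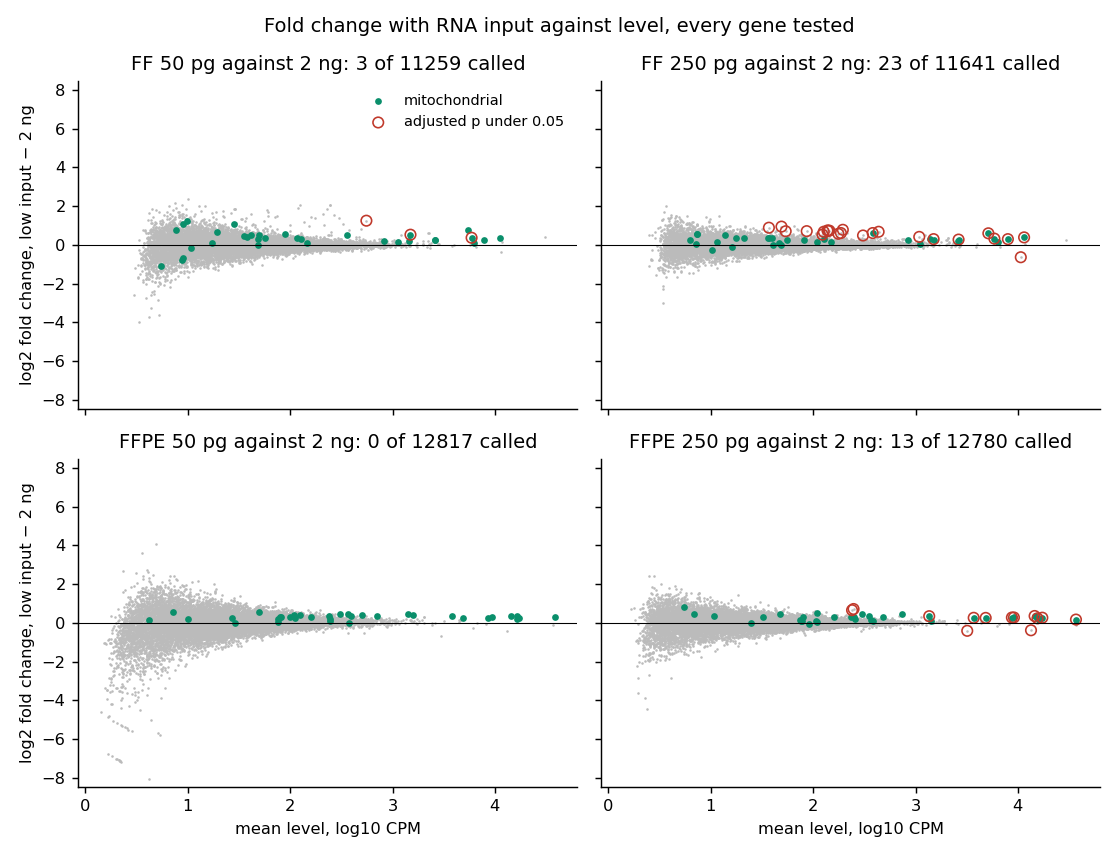
Log2 fold change, low input minus 2 ng (vertical axis), against mean level (horizontal axis, log10 CPM) for every gene tested in the 4 comparisons. Mitochondrial genes are green and genes of adjusted p under 0.05 are circled. The grey cloud is widest for FFPE at 50 pg, and the circles lie at levels above 10 CPM.

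Transcripts of the mitochondrial genome were higher at low input in both RNA samples. This genome encodes 13 subunits of the respiratory chain and ATP synthase, both rRNAs of the mitochondrial ribosome and a set of tRNAs, and its mRNAs have short poly(A) tails. The mitochondrial protein-coding genes took 3.14 ± 0.0275% of all counts at 50 pg and 3.17 ± 0.122% at 250 pg in FF against 2.72 ± 0.0896% at 2 ng. In FFPE they took 8.16 ± 0.308% and 8.32 ± 0.0436% against 7.09 ± 0.378%. The mitochondrial rRNAs took 1.95 ± 0.243% and 1.90 ± 0.211% against 1.42 ± 0.0618% in FF, and 5.92 ± 0.362% and 5.58 ± 0.272% against 5.01 ± 0.0680% in FFPE. In all of these comparisons the groups did not overlap, with an exact permutation p of 0.1, or 0.18 after adjustment over 36 comparisons of class shares. The shares of the other protein-coding genes moved the other way, by -2.00 and -1.22 points in FF and -0.83 and -1.03 points in FFPE.

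mt-Nd2 and mt-Nd3, which encode subunits of complex I, were the mitochondrial genes that passed in FF at 50 pg. mt-Nd3 (chromosome M, 9459 to 9806) was at 1736, 1714 and 1804 CPM at 50 pg, 1381, 1619 and 1596 CPM at 250 pg and 1177, 1242 and 1305 CPM at 2 ng in FF. Both low-input groups lay above the 2 ng group, and the rise at 50 pg was 1.44-fold (log2 fold change 0.53, SE 0.0633, edgeR adjusted p = 0.0162). In FFPE, mt-Nd3 was at 1649, 1552 and 1754 CPM at 50 pg, 1510, 1544 and 1504 CPM at 250 pg and 1182, 1295 and 1125 CPM at 2 ng, and the rise at 250 pg was 1.27-fold (edgeR adjusted p = 0.00909). mt-Nd2 (chromosome M, 3914 to 4951) was at 6593, 6791 and 6440 CPM at 50 pg, 6333, 6954 and 6374 CPM at 250 pg and 5372, 5398 and 4911 CPM at 2 ng in FF. It rose by 0.37 at 50 pg and 0.32 at 250 pg on the log2 scale in FF (edgeR adjusted p = 0.0162 and 0.00296). In FFPE its levels were 16330, 15710 and 16350 CPM at 50 pg and 16310, 16270 and 16370 CPM at 250 pg against 12780, 13810 and 11840 CPM at 2 ng, and it rose by 0.36 at 250 pg (edgeR adjusted p = 0.000344).

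Of the 13 mitochondrial protein-coding genes, 2 rose at 50 pg and 3 at 250 pg in FF, and 7 rose at 250 pg in FFPE, by edgeR's quasi-likelihood test. Of all genes tested, 0.0266%, 0.189% and 0.0861% were called higher in these comparisons. In FFPE at 50 pg no gene was called. None fell. The genes that rose at 250 pg were mt-Nd1, mt-Nd2 and mt-Cytb in FF, by 0.27 to 0.32, and mt-Nd1, mt-Nd2, mt-Nd3, mt-Nd4, mt-Nd5, mt-Nd6 and mt-Cytb in FFPE, by 0.26 to 0.36 on the log2 scale. The libraries of both groups did not overlap, the low input being higher, for 9 of the 13 genes at 50 pg and 9 at 250 pg in FF, against 5.81% and 6.92% of all genes tested. In FFPE this held for 8 and 11 of them, against 7.5% and 6.04% of all genes. No mitochondrial protein-coding gene was separated the other way. The median log2 fold change of the 13 genes was 0.25 at both inputs in FF, 0.26 at 50 pg and 0.28 at 250 pg in FFPE. mt-Co1, which encodes a subunit of cytochrome c oxidase, was at 6651, 6563 and 6062 CPM at 50 pg against 6190, 6168 and 5914 CPM at 2 ng in FF, groups that overlap. In the other 3 comparisons its low-input libraries lay above all 2 ng libraries, and it did not pass (edgeR adjusted p = 0.385 in FF at 250 pg, and 0.631 and 0.0639 in FFPE at 50 and 250 pg).

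Both mitochondrial rRNAs were higher in all 4 comparisons, each with no overlap between groups. mt-Rnr1, the rRNA of the small subunit, was at 5607, 6744 and 8218 CPM at 50 pg, 5624, 7174 and 5807 CPM at 250 pg and 3587, 4148 and 4532 CPM at 2 ng in FF. It rose 1.51-fold at 250 pg (edgeR adjusted p = 0.000221), and at 50 pg its log2 fold change of 0.78 came with an adjusted p of 0.0501, just outside the threshold. In FFPE it was at 20060, 17260 and 17840 CPM, 15910, 16510 and 17880 CPM, and 14430, 14590 and 13890 CPM in the same order, a rise of 0.24 on the log2 scale at 250 pg (edgeR adjusted p = 0.00375). mt-Rnr2, the rRNA of the large subunit, rose by 0.39 at 250 pg in FF (edgeR adjusted p = 0.00135) and by 0.17 in FFPE (edgeR adjusted p = 0.00739), and at 50 pg in FF it had a log2 fold change of 0.38 with an adjusted p of 0.0521. On the log2 values deposited by the authors, which are scaled by each library's upper quartile, both rRNAs had a log2 fold change below 0 at 250 pg in FFPE, mt-Rnr1 by -0.016 and mt-Rnr2 by -0.079, on a scale whose median gene moved by -0.27.

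Mitochondrial tRNAs, 22 in the annotation, had median log2 fold changes of 0.32 and 0.24 in FF and 0.35 and 0.24 in FFPE at 50 and 250 pg. Only mt-Tw, the tRNA for tryptophan, passed, at 250 pg in FF, with 467, 541 and 376 CPM against 327, 344 and 234 CPM at 2 ng (edgeR adjusted p = 0.0244). Replicate 3 was the lowest library for mt-Tw in each of the 6 groups. The first bases of mt-Tw overlap the end of mt-Nd2 in the annotation. Nuclear genes of oxidative phosphorylation, whose proteins sit in the same complexes, had medians of 0.02 at 50 pg and 0.17 at 250 pg in FF, and 0.00 and 0.04 in FFPE. Of the 76 of these genes tested in FF at 250 pg, 1 was called, Cox8a, against 0.198% of all genes. Cox8a was at 147, 148.5 and 142 CPM against 114, 100.2 and 88.2 CPM (edgeR adjusted p = 0.0411). In FFPE the levels of Cox8a overlapped at 250 pg, 209, 182.5 and 169 CPM against 183, 180 and 184 CPM.

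Small noncoding RNAs were higher at low input in FF. Their share of all counts in FF was 2.25 ± 0.369% at 50 pg and 1.91 ± 0.107% at 250 pg against 1.77 ± 0.0660% at 2 ng, without overlap at 50 pg and with overlap at 250 pg (exact permutation p = 0.1 and 0.2). In FFPE the share was 3.85 ± 0.224% and 3.95 ± 0.164% against 3.83 ± 0.219%, and the groups overlapped (exact permutation p = 0.8 and 0.6). Of the 5746 small RNA genes, 196 passed the filter on low counts in FF at 50 pg, and 56 of these had separate groups with the low input higher and 4 with the low input lower, against 5.81% and 8.52% of all genes. At 250 pg in FF it was 37 and 8 of 207, against 6.92% and 5.42%. In FFPE, 32 and 29 of 376 were separate at 50 pg, against 7.5% and 9.12%, and 47 and 18 of 369 at 250 pg, against 6.04% and 6.49%. The median log2 fold change was 0.46 and 0.21 in FF and 0.12 and 0.09 in FFPE.

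The U4 gene Gm24265 was the only small RNA that passed in FF at 50 pg. It was at 520, 797 and 1010 CPM at 50 pg, 452, 677 and 483 CPM at 250 pg and 331, 315 and 358 CPM at 2 ng, a rise of 2.38-fold at 50 pg (log2 fold change 1.25, SE 0.177, edgeR adjusted p = 0.0407) and 1.60-fold at 250 pg (edgeR adjusted p = 0.00296). Its near-copy Gm24407, at 139, 188 and 143 CPM against 96.0, 83.3 and 113 CPM, rose by 0.68 on the log2 scale at 250 pg (edgeR adjusted p = 0.0229), and as their reads may be shared this is not independent of Gm24265. In FFPE the groups of Gm24265 overlapped: it was at 2719, 2366 and 2132 CPM at 50 pg, 2370, 2763 and 2808 CPM at 250 pg and 2367, 2334 and 2526 CPM at 2 ng.

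U2-like RNAs passed in FF at 250 pg, and not at 50 pg (edgeR adjusted p = 0.111 for Gm25360 and 0.0521 for Gm25939). Gm25360 was at 197, 273 and 379 CPM at 50 pg, 223.5, 267 and 249 CPM at 250 pg and 151, 136 and 142 CPM at 2 ng, and rose 1.72-fold at 250 pg (edgeR adjusted p = 0.000132). Gm25939 rose 1.65-fold at 250 pg (edgeR adjusted p = 0.00205). The Y RNA gene Rny3 was at 167, 321 and 577 CPM at 50 pg, 165, 189 and 165 CPM at 250 pg and 82.4, 85.1 and 141 CPM at 2 ng. All low-input libraries lay above all 2 ng libraries, and the rise at 250 pg was 1.68-fold (edgeR adjusted p = 0.0244). The other Y RNA gene, Rny1, was at 166, 260 and 517 CPM at 50 pg and 147, 217 and 141 CPM at 250 pg against 80.7, 106 and 130 CPM at 2 ng, and did not pass.

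Small nucleolar RNAs, most of which are processed from the transcripts of other genes, gave 3 calls in FF at 250 pg: Snora57 at 49.7, 50.96 and 43.4 CPM against 22.1, 30.2 and 25.45 CPM (edgeR adjusted p = 0.0364), Gm23262 within Eif4g2, and Gm25791 within Taf1d. Gm23262 was at 58.6, 79.6 and 55.7 CPM against 33.6, 36.1 and 30.7 CPM (edgeR adjusted p = 0.0162), while its host gene Eif4g2, a translation factor, was at 1906, 2149 and 2172 CPM against 2037, 1981 and 2061 CPM. Gm25791 was at 189, 251 and 193 CPM against 136, 126 and 163 CPM (edgeR adjusted p = 0.0329), while Taf1d was at 124, 164 and 138 CPM against 128, 140 and 133 CPM. The host genes' groups overlapped in both cases. In FFPE the calls were Snord14c and Snord14d, which are copies of each other. Snord14c was at 255, 301 and 322 CPM at 250 pg against 174, 211 and 176 CPM at 2 ng, a rise of 1.58-fold (edgeR adjusted p = 0.00792), and at 236, 191 and 192 CPM at 50 pg. In the FF libraries it was at 92.7, 138 and 376 CPM at 50 pg and 78.9, 108 and 78.9 CPM at 250 pg against 35.3, 37.96 and 77.2 CPM, and did not pass. Hspa8, the heat shock protein gene that hosts it, was at 1716, 1765 and 1838 CPM at 250 pg in FFPE against 1603, 1615 and 1583 CPM. Unlike the other host genes, its groups did not overlap there, as for 6.04% of all genes tested that were higher, and it was not called.

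At each low input, 1 library stood out among the small RNAs in FF. The 50 pg replicate 3 was the highest of its group in 101 of the 196 small RNA genes tested, and replicates 1 and 2 in 47 and 48. The median log2 ratio of group means over these genes was 0.39 with all libraries, 0.35 without replicate 3 and 0.53 without replicate 1, so the direction held without either. At 250 pg, replicate 2 was the highest in 109 of 207 genes, and replicates 1 and 3 in 53 and 45, and the median was 0.21 with all libraries and 0.14 without replicate 2. The part of these libraries in the rise of single genes was not tested further. Among the 2 ng libraries of FF, replicate 3 had the highest level of Rny1, Rny3 and Snord14c.

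Among the abundant RNAs of RNA polymerase III, Rn7sk, which regulates transcription elongation, was at 6917, 5633 and 6150 CPM at 50 pg, 7273, 5836 and 6342 CPM at 250 pg and 6835, 7453 and 6427 CPM at 2 ng in FF, with overlap in both comparisons. Rmrp, the RNA of the RNase MRP, was at 2542, 2648 and 2922 CPM at 50 pg and 2582, 2423 and 2012 CPM at 250 pg against 1979, 1998 and 1443 CPM, and did not pass. Of the 11 polymerase III and spliceosomal RNAs on the list tested in FF at 50 pg, 7 had separate groups with the low input higher. None had it lower, against 5.81% higher and 8.52% lower of all genes tested, and their median was 0.40. At 250 pg it was 3 of 12 higher and none lower, against 6.92% and 5.42% of all genes, with a median of 0.30 and Rny3 as the only call. In FFPE the medians of 14 such RNAs were -0.07 and -0.03 at 50 and 250 pg. There 0 and 2 were separate higher, against 7.5% and 6.04% of all genes. Separate lower were 2 and 3, against 9.12% and 6.49%. Ccdc107, which overlaps Rmrp on the opposite strand, had 95.97% to 99.79% of the counts of Rmrp in every library, and the strand and overlap settings of the counting are not given in what was used here.

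**Figure D5:**
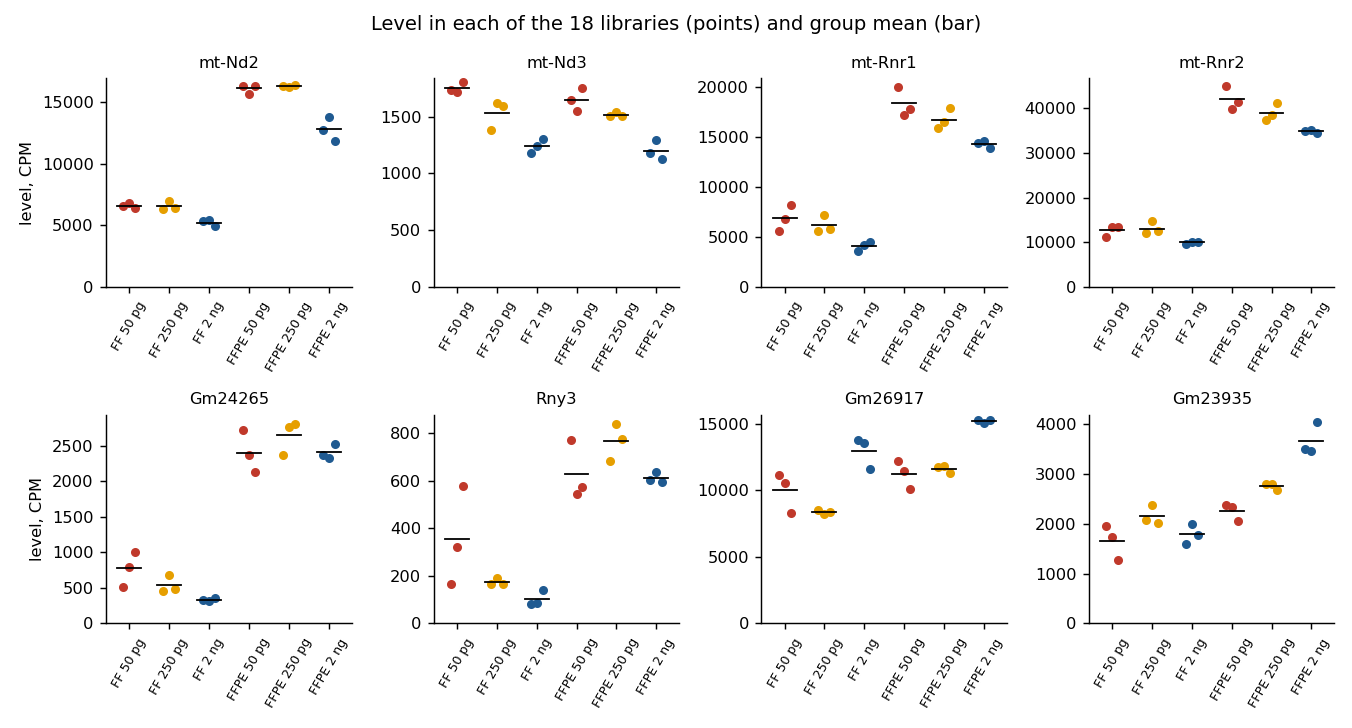
Level of 8 genes in each of the 18 libraries (points, vertical axes in CPM from 0) with group means (bars), scaled within FF and within FFPE. The mitochondrial genes mt-Nd2, mt-Nd3, mt-Rnr1 and mt-Rnr2 are lowest at 2 ng in both samples, Gm24265 and Rny3 are lowest at 2 ng in FF, and Gm26917 is highest at 2 ng in both.

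Gm26917 (chr17:39843013-39846341, plus strand) fell at 250 pg in FF and in FFPE. It is annotated as a long noncoding RNA of 3329 bases next to Gm42418 (chr17:39846958-39848788), which overlaps an annotated rRNA gene on the opposite strand, and both are among the most abundant genes of these libraries. Gm26917 was at 11160, 10580 and 8297 CPM at 50 pg, 8524, 8206 and 8356 CPM at 250 pg and 13750, 13580 and 11600 CPM at 2 ng in FF. The fall at 250 pg was the call with the lowest adjusted p of that comparison (log2 fold change -0.64, SE 0.0529, edgeR adjusted p = 1.69e-07). In FFPE it was at 12200, 11440 and 10100 CPM, 11780, 11820 and 11300 CPM, and 15290, 15070 and 15300 CPM, a log2 fold change of -0.38 at 250 pg (edgeR adjusted p = 1.47e-06) and -0.43 at 50 pg, where it did not pass (edgeR adjusted p = 0.126).

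The neighbour Gm42418 was not called. It was at 32410, 33320 and 39150 CPM at 50 pg, 32200, 35540 and 29970 CPM at 250 pg and 19410, 29190 and 32300 CPM at 2 ng in FF, where 2 ng replicate 1 lay far below the others. In FFPE it was at 37040, 36180 and 33320 CPM, 35690, 35800 and 34480 CPM, and 38720, 36730 and 40630 CPM. The 50 pg libraries lay above the 2 ng libraries in FF, and the 250 pg libraries below them in FFPE. A list carried over from earlier work on these data, called ribosomal-repeat-like, holds 4 genes (Gm26917, Gm42418, Gm23935 and Gm15564). Whether Gm23935 comes from the ribosomal repeat was not tested. Together the 4 genes took 4.72 ± 0.227% and 4.28 ± 0.258% of counts at 50 and 250 pg against 4.25 ± 0.586% in FF, with overlap. In FFPE they took 4.85 ± 0.336% and 5.03 ± 0.133% against 5.94 ± 0.260%, without overlap (exact permutation p = 0.1, adjusted 0.18). None of the 4 had a fitted fold change above 0 in FFPE, with medians of -0.47 and -0.25.

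By edgeR's quasi-likelihood test, Gm23935 was the 1 gene of 13275 (0.00753%) for which the shift at 250 pg was called different between FFPE and FF, where DESeq2 called 2, voom with a weight per group 3 and edgeR without the filter on low counts 9. It was at 1944, 1727 and 1280 CPM at 50 pg, 2080, 2369 and 2005 CPM at 250 pg and 1590, 1999 and 1778 CPM at 2 ng in FF, and at 2378, 2338 and 2058 CPM, 2783, 2782 and 2665 CPM, and 3494, 3442 and 4032 CPM in FFPE. All 250 pg libraries lay above the 2 ng libraries in FF and below them in FFPE, and in FFPE the level at 50 pg was lower again. In FF the nearest libraries of both groups were at 2005 and 1999 CPM, and the rise there was not called. The fall in FFPE at 250 pg was -0.41 on the log2 scale (edgeR adjusted p = 0.00142), and the change in FFPE minus the change in FF was -0.66 (SE 0.0959, edgeR adjusted p = 0.00187). At 50 pg no gene of 13404 passed this test of the difference, 1009 had an unadjusted p under 0.05, DESeq2 called 26 and limma's voom with a weight per group called 12. The longest run of bases that Gm23935 shares with the annotated transcripts of Gm26917, Gm42418 or Gm15564 is 10. The complete ribosomal repeat was not searched, so this run does not show whether Gm23935 is part of it.

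For Gm24265, the difference of the changes at 50 pg was -1.22 on the log2 scale (edgeR adjusted p = 0.134). For mt-Nd2 at 250 pg it was 0.04 (SE 0.0655, edgeR adjusted p = 0.989).

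Few protein-coding genes outside the mitochondrial genome were called. In FF at 250 pg there were 5: Plac8, Cox8a, the ribosomal protein genes Rplp1 and Rps2, and Gm2000. Plac8, which encodes a small cysteine-rich protein, was at 371, 362 and 343 CPM against 265, 246.5 and 255 CPM, a rise of 1.40-fold (edgeR adjusted p = 0.00296), and at 338, 270 and 305 CPM at 50 pg, also above the 2 ng group. In FFPE it was at 281, 239 and 251 CPM against 257, 258 and 258 CPM. Rps2 was at 1758, 1641 and 1574 CPM against 1391, 1397 and 1250 CPM (edgeR adjusted p = 0.0425), and its 50 pg libraries were at 1380, 1383 and 1427 CPM. The pseudogenes Gm12918 and Gm12715 and the long noncoding RNA gene Gm17275 were the other calls, with log2 fold changes of 0.61 to 0.74. For Cox8a, Rplp1, Rps2, Gm2000, Gm12918, Gm12715 and Gm17275 the levels at 50 pg in FF overlapped those at 2 ng. Their means at 50 pg lay below those at 250 pg, so these shifts did not grow as the input fell further. The mean of Plac8 in FF was 304 CPM at 50 pg and 358 CPM at 250 pg.

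The cytosolic ribosomal protein genes, which are short, abundant mRNAs, lay mostly above 2 ng at 250 pg in FF. Of 81 tested there, 78 had a fold change above 0, 34 had separate groups with the low input higher and none with it lower, against 6.92% and 5.42% of all genes. Called were 2, Rplp1 and Rps2, against 0.198% of all genes. Rplp1 was at 1281, 1363 and 1083 CPM against 983, 1013 and 798 CPM (edgeR adjusted p = 0.0329), and replicate 3 was its lowest library in each of the 6 groups. The median log2 fold change of the 81 genes was 0.17 there, and 0.03 at 50 pg in FF, 0.05 at 50 pg and 0.02 at 250 pg in FFPE. Mitochondrial ribosomal protein genes had a median of 0.14 at 250 pg in FF, with 11 separate higher and 4 lower of 74 and none called. Across protein-coding genes of FF at 250 pg, the 2087 with the shortest transcripts had a median log2 fold change of 0.085 and the 2085 with the longest of -0.033. The medians of the shortest and the longest were 0.052 and -0.004 in FF at 50 pg, and 0.032 and -0.002 in FFPE at 250 pg. In FFPE at 50 pg the order was the other way, with 0.0006 and 0.056. By GC content the medians ran from -0.047 in the lowest to 0.060 in the highest group of about equal size in FF at 50 pg, and from 0.106 to -0.047 in FFPE at 50 pg.

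Lists of general and tumour functions are given for completeness, since at the overall shares of called genes (0% to 0.198%) few or no calls would fall in lists of their size. Of the lists for the cell cycle (30 genes), glycolysis (15), cholesterol synthesis (18), housekeeping (13), replication-dependent histones (58) and genes of very long transcripts (15), none had a member that passed in any of the 4 comparisons. Their median log2 fold changes lay between -0.13 and 0.15. The same held for the lists of immediate early and heat shock genes, nuclear long noncoding RNAs, and oncofetal and tumour genes, with no call and medians between -0.10 and 0.17. Actb was at 12490, 12220 and 11740 CPM at 50 pg, 11960, 12040 and 11840 CPM at 250 pg and 11530, 11540 and 11010 CPM at 2 ng in FF, and did not pass although the groups did not overlap. Gapdh was at 2005, 2212 and 2032 CPM, 2421, 2157 and 2107 CPM, and 1901, 1981 and 1716 CPM. Hmga2, which encodes an architectural DNA-binding protein, was at 434, 463 and 495 CPM, 481, 435 and 461 CPM, and 457, 461 and 481 CPM in FF, with overlap in both comparisons. In FFPE, Hmga2 was at 667, 663 and 681 CPM at 50 pg against 559, 572 and 588 CPM at 2 ng. These FFPE groups did not overlap, as for 7.5% of all genes tested that were higher there, and Hmga2 was not called. Its FFPE levels at 250 pg, 586.5, 506 and 600 CPM, overlapped those at 2 ng. The nuclear long noncoding RNA Malat1 was at 1276, 1290 and 1300 CPM at 50 pg against 1277, 1239 and 1420 CPM at 2 ng in FF, and at 4469, 4786 and 5133 CPM against 4167, 4423 and 4418 CPM in FFPE. Neat1, the scaffold of paraspeckles, was at 2639, 2475 and 2645 CPM at 50 pg against 2538, 2606 and 2763 CPM in FFPE.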

How the data were processed

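BC57 RNA was measured in 18 libraries sequenced as paired reads of both ends. Per the submitters' processing notes, reads were aligned to mm10 with STAR and handled with SAMtools, and genes were counted with featureCounts. Versions were not given in the sources used here. Analysis started from the gene counts deposited by the authors for 39179 genes, of which 37693 matched GENCODE M21, and the others held at most 1.21% of a library. The deposited log2 values, which are log2(count × 1000 / upper quartile of nonzero counts + 1) as recomputed from the counts, served as an alternative.

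Groups were taken from the labels. Levels are CPM (counts scaled to library totals) after TMM scaling over the 9 libraries of FF or of FFPE, so levels are not compared between both. Low inputs were tested against 2 ng with edgeR 4.0.16 (quasi-likelihood test, filterByExpr, TMM, Benjamini-Hochberg threshold 0.05) in R 4.3.3, with DESeq2 1.42.0 and limma 3.58.1 as alternatives. The difference between FFPE and FF was an interaction term. The scripts were tested on simulated data. Detection and spread used counts thinned to 928722, with a pseudocount of 1 on log scales. The SD of single genes of at least 50 CPM used levels from all counts. Class shares and detection were tested with exact permutation tests. PCR reads are not independent molecules. Alternatives were other normalizations and tools, no filter, equal depth, a replicate block, all 9 libraries in 1 fit and leaving out each library.

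Genes and lists were chosen with earlier results of these data known. Named genes were those of largest change among called genes with separate groups and at least 20 CPM, up to 3 members of each list, a fixed set (Gapdh, Actb, Hmga2, Neat1, Malat1, Gm42418, Rn7sk, Rmrp, mt-Co1, mt-Rnr2), the lost genes of highest level, and the genes of largest rise in SD among those of at least 50 CPM. Called genes with a Gm symbol, host genes and near-copies were named after their values were seen. Other libraries of the series are not analysed here, except for 3 poly(A) libraries that set the abundance classes.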

Additional observations from a re-analysis of the deposited data

Results flagged for a closer look

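Gm23935 is listed here because its change with input differed between both RNA samples by the interaction test. Its change from 2 ng to 250 pg in FFPE minus that in FF was -0.66 on the log2 scale (SE 0.0959, edgeR adjusted p = 0.00187 over 13275 genes). The 250 pg libraries lay above all 2 ng libraries in FF, by 0.26, and below all of them in FFPE, by -0.41. Only the fall in FFPE was called, and in FF the nearest libraries were at 2005 and 1999 CPM. At 50 pg the change in FFPE minus that in FF was -0.58 (edgeR adjusted p = 0.4). Leaving out any 1 library gave -0.75 to -0.58 at 250 pg.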

How the results depend on the processing

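The number of called genes depended on the fit more than the direction of the named genes did. In FF at 50 pg, 3 genes were called, against 7 with DESeq2's size factors, 1 with total counts only, 35 with DESeq2, 61 with no filter on low counts, 16 at equal depth, 62 with voom and a weight per group (chosen after seeing the data), 25 with all 9 libraries in 1 fit, 0 with limma on the deposited log2 values, and 0 to 15 without 1 library. In FF at 250 pg the 23 calls became 12, 59, 44, 5 and 6 with total counts, no filter, voom, 1 fit and deposited values, and 8 to 49 without 1 library. In FFPE at 50 pg the 0 calls became 171 with DESeq2, 7 with no filter, 5 at equal depth, 19 with voom, 10 in 1 fit and 1337 on deposited values. In FFPE at 250 pg the 13 calls became 29 with DESeq2, 34 with no filter, 27 with voom, 6 in 1 fit, 33 on deposited values and 8 to 16 without 1 library. The deposited scale moved the median of all genes by -0.35 and -0.09 in FF and -0.58 and -0.27 in FFPE at 50 and 250 pg, and on it mt-Rnr1 and mt-Rnr2 changed sign in FFPE at 250 pg, to -0.016 and -0.079. For the difference between FFPE and FF, the 0 calls at 50 pg became 26 with DESeq2, 44 with no filter, 4 at equal depth, 12 with voom and 0 to 6 without 1 library, and the 1 call at 250 pg became 2, 9, 2, 3 and 1 to 3. The cause was not tested. With the replicate number as a block the calls were 42 and 80 in FF and 5 and 33 in FFPE at 50 and 250 pg, and 2 for the difference at 250 pg. Same-numbered libraries correlated at -0.001 to 0.153 over 7320 genes. The main fits did not treat the numbers as pairs, and these correlations alone do not settle that choice. Replicate 3 correlated best with its own number in all 4 comparisons, and replicates 1 and 2 only in some, so an effect shared by the third replicates is not excluded. Of 390 gene values under other settings, 282 kept their direction and side of the threshold, 78 lost the call, 28 gained it and 2 reversed, and of 270 without 1 library 173 kept both.

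Without thinning, FF libraries at 250 pg, which are deeper than those at 2 ng, had 631 more genes of 5 or more counts, not fewer. Genes lost from all 3 libraries numbered 182, 83, 404 and 162 in FF 50 pg, FF 250 pg, FFPE 50 pg and FFPE 250 pg when 1 count at 2 ng was enough. In FFPE at 50 pg they numbered 1 with 10 or more against at most 1 count, and 5 with another thinning. Unthinned, they numbered 11, 68 and 8 in FF 50 pg, FFPE 50 pg and FFPE 250 pg, and genes at 0 in at least 1 library numbered 682, 1459 and 449. The share of other protein-coding genes moved by -1.76 and -1.82 points in FFPE at 50 and 250 pg when the ribosomal-repeat-like genes were left out. The rise in median SD for genes of 10 to 100 CPM was 0.203, 0.0669, 0.314 and 0.117 in the same 4 comparisons. Without 1 library it was 0.0959 to 0.253, 0.00528 to 0.117, 0.187 to 0.368 and 0.0438 to 0.172, where an SD over 2 libraries is lower by construction.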
